A study of Mus musculus with 15 samples.

Results

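Matrix metalloproteinases (MMPs) and their tissue inhibitors (TIMPs) were followed in WEHI-164 tumors injected with poly(I:C). The genes were Mmp2, Mmp3, Mmp9, Mmp10, Mmp12, Mmp13, Mmp14, Timp1, Timp2 and Timp3, which are 10 of the 32543 genes in the count table, taken by name. All 10 passed the filter on low counts, as did 15494 genes in all.

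RNA from 15 subcutaneous tumors of female BALB/c mice, given as WT in genotype, was sequenced. WEHI-164 is a mouse fibrosarcoma cell line, so the tumor cells are themselves of mesenchymal type and the host supplies further fibroblasts, vessels and immune cells. Tumors taken on day 0 were untreated, and those taken on days 1, 3, 5 and 7 had received poly(I:C), a synthetic double-stranded RNA sensed by Toll-like receptor 3. There were 3 tumors on each day. The labels give a daily intratumoral dose of 1 µg in 25 µL with 6 doses planned, whereas a supplement of the study names a larger dose, so the dose is uncertain. The study used mice aged 8 to 12 weeks. Untreated day 0 tumors were the only controls among the labelled groups, so injection itself was not separated from poly(I:C). The labels do not say whether each tumor came from its own mouse, so p-values measure the spread between tumors. In whole tumors, fewer cells of a type and less RNA per cell cannot be told apart.

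MMPs are zinc-dependent proteases, made as inactive proenzymes, that cut collagens, other matrix proteins and many cell surface and secreted molecules. TIMPs bind the active site of the mature enzymes and block it. In tumors both come from cancer cells, fibroblasts, macrophages and neutrophils, and transcription of several MMP genes is known to respond to inflammatory cytokines through the factor AP-1.

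Mmp13, Mmp12, Mmp3 and Mmp10 lie on the same strand of chromosome 9 within 237.7 kb (GRCm38, chr9:7272514-7510240), in a cluster of 10 MMP genes that spans 427.1 kb and of which 6 passed the filter. Promoters were searched on both strands for TGANTCA, the letters AP-1 is known to bind. RefSeq promoter windows (GRCm38.p6, 250 bases before to 50 after each start site) were found for 8 of the 10 genes (all but Mmp2 and Mmp9), with 9 start sites. TGANTCA occurred 1 time in each of 4 windows, those of Mmp13, Mmp3, Mmp10 and the downstream start of Mmp12. No match was found in the windows of Timp1, Timp2, Timp3, Mmp14 or the upstream start of Mmp12. For comparison, 7.808% of all 32851 promoter windows held these letters. The 130 bases that end just before each start are shown with TGANTCA in capitals, because all 4 matches fall in the last 63 bases before the start.
Mmp13 (chr9:7272384-7272513, plus strand): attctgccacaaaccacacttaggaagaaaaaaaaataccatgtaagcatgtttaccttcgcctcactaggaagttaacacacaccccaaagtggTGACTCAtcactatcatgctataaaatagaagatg
Mmp12 (downstream start, chr9:7347244-7347373, plus strand): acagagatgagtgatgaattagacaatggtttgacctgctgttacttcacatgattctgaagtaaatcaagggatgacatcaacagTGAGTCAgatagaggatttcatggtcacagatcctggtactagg
Mmp3 (chr9:7445692-7445821, plus strand): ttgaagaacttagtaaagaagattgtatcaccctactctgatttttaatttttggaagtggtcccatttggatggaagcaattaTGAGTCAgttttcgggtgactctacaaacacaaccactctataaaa
Mmp10 (chr9:7502212-7502341, plus strand): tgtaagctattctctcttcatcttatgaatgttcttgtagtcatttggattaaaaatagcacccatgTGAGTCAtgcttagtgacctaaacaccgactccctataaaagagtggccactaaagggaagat

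The matches begin 35 bases before the start of Mmp13, 44 before that of Mmp12, 46 before that of Mmp3 and 63 before that of Mmp10. The letters AGGAAG, a core of ETS factor sites, occurred in 35.35% of all windows and, among the members, in those of Mmp13, Mmp12 (upstream start), Mmp3, Mmp14, Timp1 and Timp3. The letters GAAANNGAA, a core of interferon-response elements, occurred in 8.56% of all windows and, among the members, in the Mmp13 window alone, at 151 and 145 bases before the start in overlapping copies. These are matches of letters and no measurement of binding. Over the 15 tumors, rank correlations (Spearman's rho) between pairs of the 4 genes with the AP-1 letters lay between -0.432 and 0.457, and between -0.301 and 0.675 without day 3 replicate 1 (the tumor described after the gene levels).

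Levels between genes were compared per length, as CPM (read counts scaled to library size) divided by the kilobases of annotated exon. Timp1 had the highest median over the 15 tumors, at 144.4 CPM per kb, followed by Timp2 at 94.5, Mmp14 at 72.33 and Timp3 at 37.23. Mmp12 followed at 26.08 CPM per kb, then Mmp3 at 15.4, Mmp13 at 14.39, Mmp2 at 11.64, Mmp9 at 7.606 and Mmp10 at 3.777. Each of the first 5 stood above its next neighbour in 12 to 15 of the 15 tumors. Mmp3 was above Mmp13 in 6 tumors of 15, so the order of this pair was not separated from the spread. Mmp13 was above Mmp2 in 11 tumors, Mmp2 above Mmp9 in 12 and Mmp9 above Mmp10 in 12.

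Day 3 replicate 1 stood apart from the other tumors. Its mean correlation with them was 0.8844, against at least 0.9558 for each other tumor, and it held 3022 summed CPM of 7 skeletal muscle markers against at most 166.9 elsewhere. Its 8 fibroblast markers summed to 2339 CPM against at most 645.4, and its 6 adipocyte markers to 232.7 against at most 53.88. It was also the highest tumor for macrophage (5288 CPM), neutrophil (195.6), endothelial (487.1), T cell (182.3), mast cell (703.1) and mesenchymal (21310) markers. It was not the highest for keratinocyte or erythroid markers. Its 4 epithelial markers summed to 36.48 CPM against at least 116.5. Results on day 3 are therefore given with and without this tumor. Total counts ranged from 23713090 to 31913106 per tumor. The 6 mesenchymal markers, which fit the labelled fibrosarcoma, summed to at least 8071 CPM in every tumor.

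By edgeR's quasi-likelihood test no gene reached an adjusted p under 0.05 in any of the 5 comparisons or in the joint test of the treated days, so 0 of the 10 members were called, with 0.0% of all genes called. At an unadjusted p under 0.05 the comparisons held 489 genes for day 1 against day 0, 4654 for day 3, 744 for day 5, 320 for day 7 and 5502 for day 7 against day 3, and 2509 in the joint test. The share of genes called by DESeq2 was 0.258% for day 1, 12.9% for day 3, 0.071% for day 5 and 0.0323% for day 7, each against day 0. It was 21.0% for day 7 against day 3 and 7.59% in the joint test. With day 3 replicate 1 left out, which also left 15378 genes after the filter, these shares were 0.553% for day 3, 0.605% for day 7 against day 3 and 1.17% in the joint test. All DESeq2 shares are of all genes after the filter, including genes to which DESeq2 gave no adjusted p. Of the 10 members DESeq2 called Mmp10 on day 3, Mmp10 and Mmp2 in day 7 against day 3, and Mmp10 in the joint test. The 4 comparisons with day 0 share its 3 tumors.

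**Figure D1:**
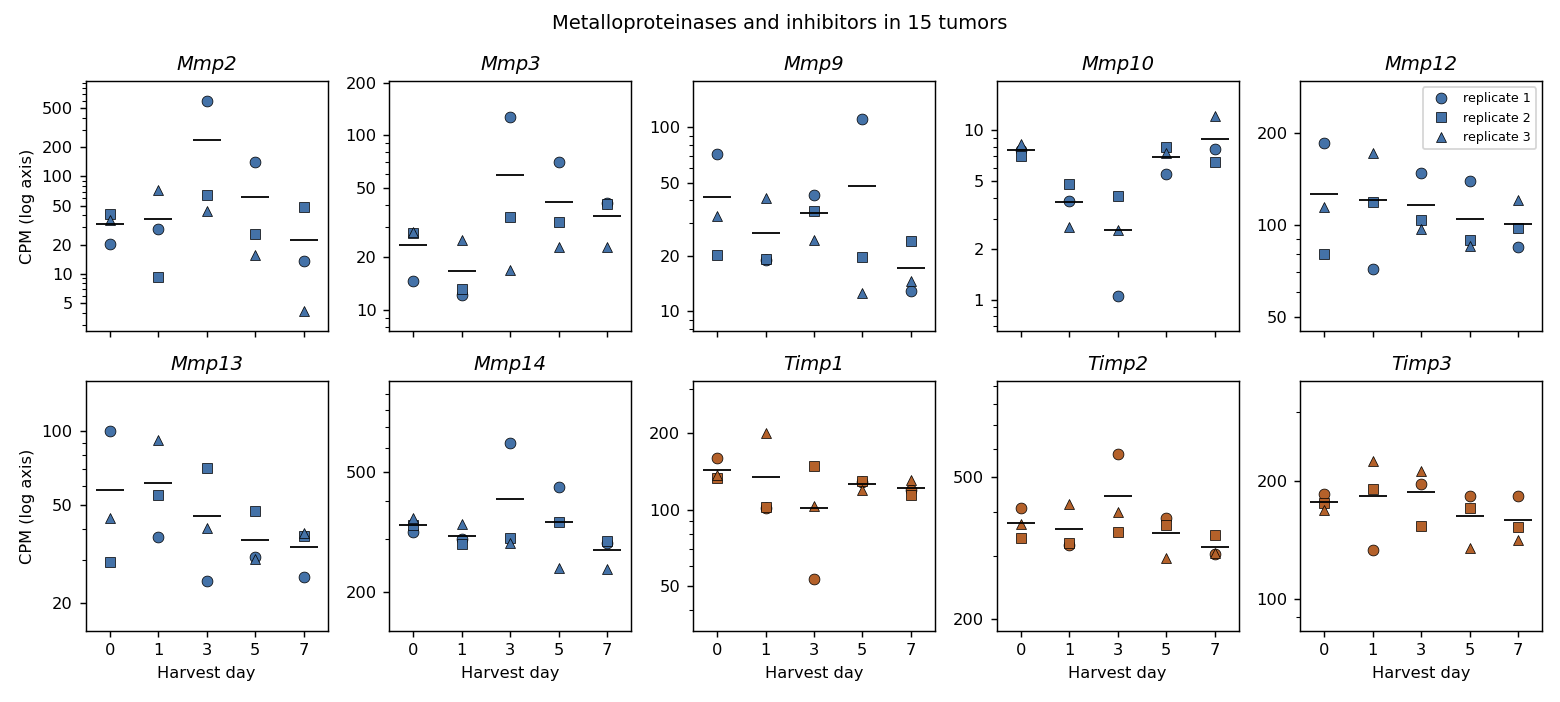
CPM (log axis, a scale of its own for each gene) of the 10 genes against harvest day, with 1 point per tumor, marker shape for the replicate number and a bar for the mean of 3 tumors; MMPs are blue and TIMPs brown. Mmp10 was at most 4.79 CPM in all 6 tumors of days 1 and 3 and at least 5.49 in the other 9. How many of all genes split in this way was not counted. Day 3 replicate 1 was highest for Mmp2, Mmp3, Mmp14 and Timp2.

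Among the stromelysins, proteases with broad matrix substrates that also activate other proenzymes, Mmp10 was the member that DESeq2 called in the most comparisons. Its level was 7.69, 7.00 and 8.25 CPM in the day 0 tumors (replicates 1 to 3). It was 3.84, 4.79 and 2.69 CPM on day 1 and 1.05, 4.08 and 2.57 CPM on day 3. On day 5 it was 5.49, 8.004 and 7.33 CPM, and on day 7 it was 7.77, 6.50 and 12.2 CPM. The 6 tumors of days 1 and 3 were thus all lower than the 9 others, a split noticed after the values were seen. The share of all genes that split in this way was not counted, so the split is not read as a result about Mmp10. Counts were low throughout, from 26 in day 3 replicate 1 to 292 in day 7 replicate 3.

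On day 1 Mmp10 was 2.03-fold lower than on day 0 (7.65 ± 0.625 CPM on day 0, SD, n = 3). The edgeR log2 fold change was -1.02 ± 0.40 (SE), with an unadjusted p of 0.024 and an adjusted p of 1.0. Its groups did not overlap, as 1 of 10 members, where 6.61% of all genes were lower and 5.76% higher without overlap. On day 3 it was 2.98-fold lower, with a log2 fold change of -1.57 ± 0.40, an edgeR adjusted p of 0.115 and a DESeq2 adjusted p of 0.00996. Its day 3 and day 0 groups did not overlap, and 19.0% of all genes were lower in this way. From day 3 to day 7 it was 3.44-fold higher, with a log2 fold change of 1.78 ± 0.41, an edgeR adjusted p of 0.0832 and a DESeq2 adjusted p of 0.00398, and the groups did not overlap, while 14.6% of all genes were higher in this way. The joint test of treated days gave an adjusted p of 0.292 by edgeR and 0.00374 by DESeq2. limma voom with quality weights gave Mmp10 an adjusted p of 0.0308 on day 3 and 0.0130 for day 7 against day 3. Over all genes it called 1186 on day 3 and 3246 for day 7 against day 3.

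Without day 3 replicate 1 the day 3 log2 fold change of Mmp10 was -1.19 by edgeR (adjusted p 0.366) and -1.20 by DESeq2 (adjusted p 0.0607), so the DESeq2 call was lost. In 12 of the 15 fits that left out 1 tumor DESeq2 still called it. Most of these 12 fits omitted a tumor of neither compared day, which left both compared groups unchanged. Among fits that omitted a tumor of day 0 or day 3, the call held without day 0 replicate 2 (adjusted p 0.0314). It also held without day 3 replicate 2 (4.0e-04) or replicate 3 (0.0108), and in no other of these fits. The fit that omitted day 0 replicate 1 also lost the call (adjusted p 0.103), and that omitting day 0 replicate 3 had no DESeq2 adjusted p. For day 7 against day 3 the DESeq2 call held in 12 of 15 fits, again mostly fits that omitted a tumor of neither compared day. It was lost without day 7 replicate 1 (adjusted p 0.0589), and there was no DESeq2 adjusted p when day 3 replicate 1 or day 7 replicate 3 was omitted. Among fits that omitted a tumor of day 3 or day 7, the call held only in these cases. They were replicate 2 or 3 of day 3 omitted (adjusted p 6.1e-05 and 0.0045) and replicate 2 of day 7 omitted (4.2e-04). The edgeR adjusted p for day 7 against day 3 was 0.0493 without day 3 replicate 3, and above 0.05 in the other 14 fits. In the fit without day 3 replicate 3 edgeR called 2104 genes in all. By DESeq2 the fits that left out 1 tumor called 13 to 4225 genes on day 3 and 12 to 5259 for day 7 against day 3.

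Mmp3, the other stromelysin among the members, measured 14.7, 27.7 and 28.0 CPM on day 0, 12.1, 13.2 and 25.1 on day 1, 128 and then 33.9 and 16.9 on day 3, 70.5, 31.9 and 22.8 on day 5, and 40.8, 40.5 and 22.8 on day 7. Day 3 replicate 1 was the highest tumor and day 5 replicate 1 the next, and all groups overlapped with day 0. The day 3 log2 fold change was 1.35 ± 0.65, with an edgeR adjusted p of 0.178, and 0.12 without day 3 replicate 1 (adjusted p 0.923). From day 3 to day 7 it was -0.78 ± 0.64 and turned to 0.46 without that tumor. Over the 15 tumors the 2 stromelysins had a Spearman rho of 0.021, and 0.257 without day 3 replicate 1.

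The gelatinases Mmp2 and Mmp9 cut denatured and basement membrane collagens. Mmp2 had the widest range of the 10 members, 142.4-fold from the lowest to the highest tumor. The day 0 tumors held 20.3, 41.4 and 35.8 CPM and the day 1 tumors 28.7, 9.21 and 73.2 CPM. Day 3 gave 595.5, 64.3 and 44.4 CPM, day 5 gave 141.9, 25.6 and 15.8, and day 7 gave 13.6, 48.6 and 4.18. All 3 day 3 tumors lay above the day 0 tumors, as 1 of 10 members, where 19.4% of all genes were higher without overlap. Most of the day 3 difference lay in replicate 1.

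The day 3 mean of Mmp2 was 7.22 times that of day 0 (235 ± 313 against 32.5 ± 10.9 CPM, SD, n = 3). The edgeR log2 fold change was 2.85 ± 1.21 with an adjusted p of 0.147, and the DESeq2 adjusted p was 0.0748. Without day 3 replicate 1 the log2 fold change was 0.75 (edgeR adjusted p 0.743). DESeq2 called Mmp2 on day 3 in 2 of the 15 fits, those without day 3 replicate 2 (adjusted p 0.0392) or replicate 3 (0.0307). Over all genes the fits that left out 1 tumor called 13 to 4225 on day 3. From day 3 to day 7 the log2 fold change was -3.41 ± 1.24 (edgeR adjusted p 0.0944, DESeq2 adjusted p 0.0282), and the groups overlapped. Without day 3 replicate 1 it was -1.29 by DESeq2 (adjusted p 0.467), so this call too was lost, as it was without day 7 replicate 1 (adjusted p 0.123), and DESeq2 gave no adjusted p when day 7 replicate 3 was omitted.

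**Figure D2:**
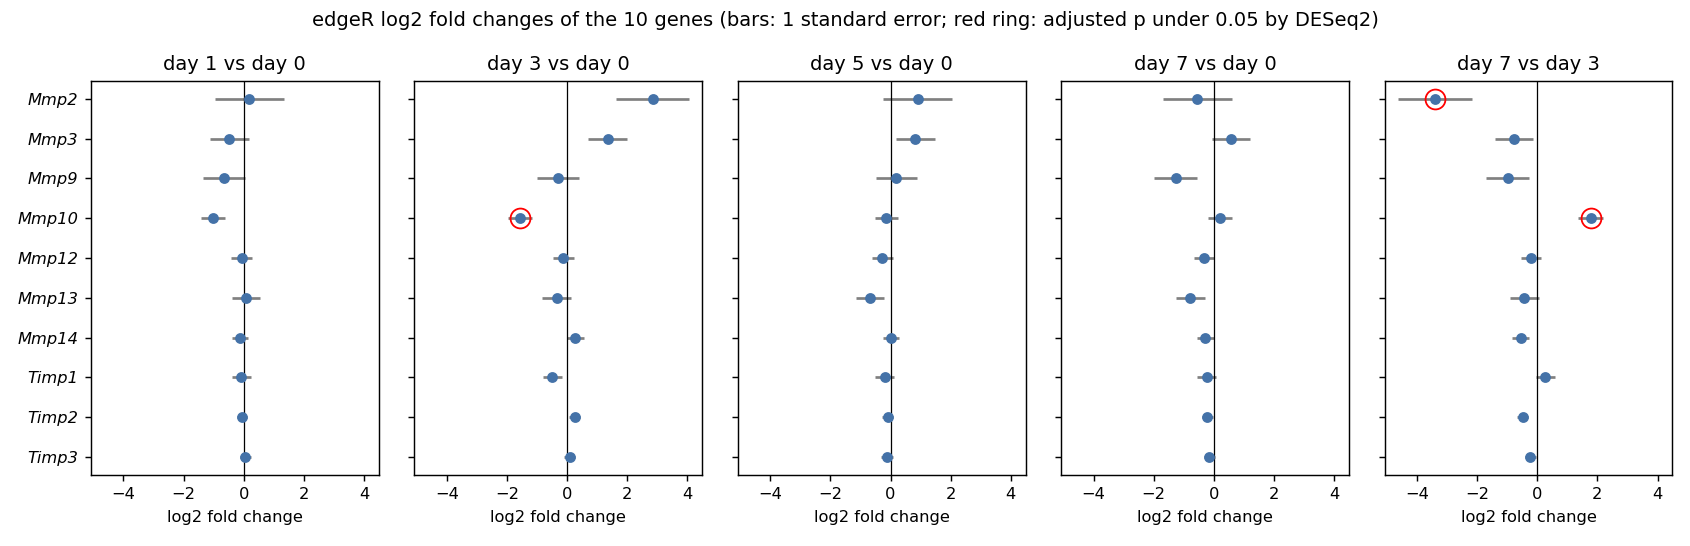
edgeR log2 fold changes (horizontal axis) with 1 standard error of the 10 genes in the 5 comparisons, and red rings where the DESeq2 adjusted p was under 0.05. The rings mark Mmp10 on day 3 against day 0 and Mmp10 and Mmp2 on day 7 against day 3, and no edgeR adjusted p was under 0.05.

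Mmp2 moved with the fibroblast markers. Over the 15 tumors its rank correlation with the sum of 8 fibroblast markers was 0.979, and 0.974 without day 3 replicate 1. The marker sum ran from 143.2 CPM in day 7 replicate 3, which had the lowest Mmp2, to 2339 CPM in day 3 replicate 1. Mmp2 also tracked markers of mast cells (rho 0.964), endothelium (0.914), adipocytes (0.907), neutrophils (0.900), T cells (0.864) and macrophages (0.750). The 3 genes most like it were Adamts2, Cdh11 and Cpxm1, each at 0.989. The tumors share tissue composition and library, so these are descriptions, and the part of fibroblast content in the Mmp2 values was not tested. Mmp10 ran the other way, with a rho of -0.671 with fibroblast markers and -0.596 without day 3 replicate 1. Its rho was also negative with neutrophil (-0.618), mast cell (-0.593), T cell (-0.539), endothelial (-0.529) and macrophage (-0.475) markers. With epithelial (0.389) and erythroid (0.093) markers it was positive.

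**Figure D3:**
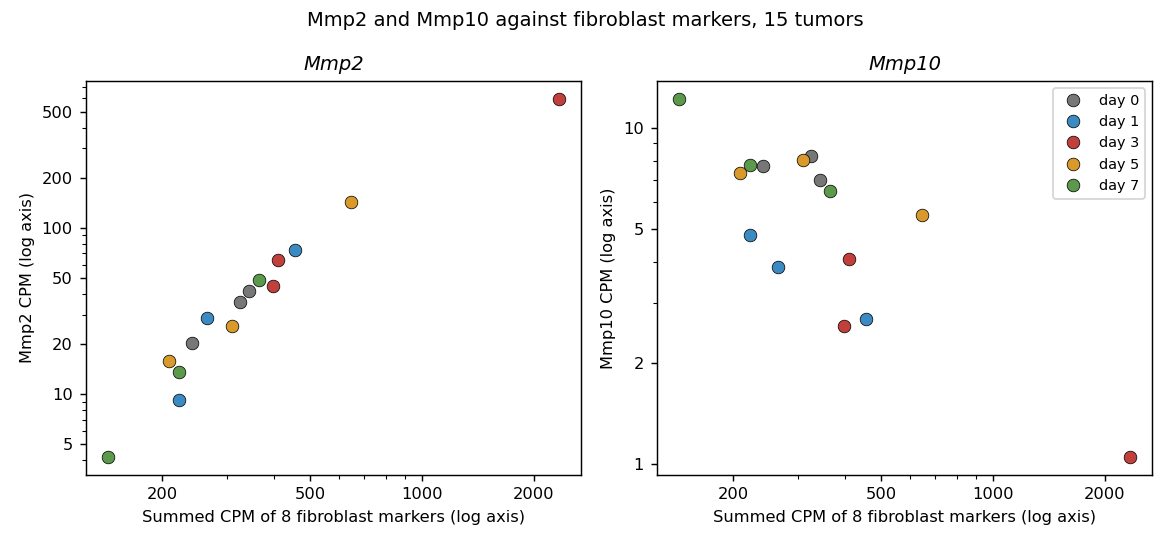
CPM of Mmp2 (left) and Mmp10 (right) against the summed CPM of 8 fibroblast markers in the 15 tumors, both axes logarithmic, colored by harvest day. Tumors with a higher marker sum hold more Mmp2 (rho 0.979) and tend to hold less Mmp10 (rho -0.671). Day 1 replicate 3 and the day 3 tumors have marker sums of 398.6 to 2339 CPM, above all others but day 5 replicate 1 (645.4 CPM). The part of fibroblast content in the Mmp10 values was not tested.

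Mmp9, made largely by neutrophils and macrophages, was 71.7, 20.3 and 33.1 CPM on day 0 and 19.0, 19.2 and 41.3 on day 1. On day 3 it was 42.7, 34.9 and 24.5 CPM, on day 5 it was 111, 19.7 and 12.5, and on day 7 it was 12.9, 24.2 and 14.7. Day 5 replicate 1 was the highest and day 5 replicate 3 the lowest tumor. The day 7 tumors were all below those of day 3 (18.4% of all genes were lower without overlap), with a log2 fold change of -0.98 ± 0.71 (edgeR adjusted p 0.306). Over the 15 tumors Mmp9 had its highest marker rho with fibroblast (0.793), endothelial (0.779), mast cell (0.761) and mesenchymal (0.750) markers. It was lower with T cell (0.70), neutrophil (0.689) and macrophage (0.543) markers. Against day 0 the largest Mmp9 difference was on day 7, with a log2 fold change of -1.27 ± 0.71 (edgeR adjusted p 1.0).

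Mmp12, the macrophage elastase, was among the steadier members, with a 2.59-fold range. Its lowest tumor was day 1 replicate 1 (71.8 CPM), its median 103.9 and its highest day 0 replicate 1 (185.8). Day means went from 127 ± 53.8 CPM on day 0 to 101 ± 18.0 on day 7, all groups overlapped, and log2 fold changes against day 0 lay between -0.33 and -0.07. Its rho with the sum of the 8 macrophage markers was 0.186, and 0.064 without day 3 replicate 1. Reads from Mmp12 and Mmp1b, which overlap on opposite strands, cannot be assigned without knowing the strand setting, but Mmp1b had at most 6 counts in any tumor. The collagenase Mmp13, which cleaves fibrillar collagen, ranged from 24.7 CPM in day 3 replicate 1 to 100.2 in day 0 replicate 1. Its day means were 58.0 ± 37.4, 61.5 ± 28.1, 45.4 ± 23.5, 36.3 ± 9.82 and 33.8 ± 7.26 CPM from day 0 to day 7. The log2 fold change on day 7 was -0.78 ± 0.48 (edgeR adjusted p 1.0), with overlapping groups.

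Mmp14, a membrane-anchored MMP that activates pro-Mmp2 together with Timp2, was the best expressed of the proteases. It measured 317, 334 and 352 CPM on day 0 and 300.4, 288 and 335 on day 1. On day 3 it was 622, 303 and 291 CPM, on day 5 it was 444, 340 and 240.0, and on day 7 it was 291.5, 295 and 239. The day 7 tumors were all below the day 0 tumors (11.3% of all genes did not overlap in either direction), with a log2 fold change of -0.28 ± 0.27 (edgeR adjusted p 1.0). The day 3 value was 0.28 ± 0.27, and -0.17 without day 3 replicate 1. Over the 15 tumors Mmp14 ran with Mmp2 (rho 0.70) and with Timp2 (rho 0.714).

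From the lowest to the highest tumor the TIMPs ranged from 1.68-fold to 3.78-fold and the MMPs from 2.59-fold to 142.4-fold. Timp1, a secreted inhibitor induced by many cytokines, was 159, 133 and 136 CPM on day 0, 101, 102 and 201 on day 1, 53.1, 149 and 103 on day 3, 128, 129.5 and 119.7 on day 5, and 119.5, 115 and 131 on day 7. All 3 tumors of day 5 and of day 7 lay below day 0, making Timp1 the 1 non-overlapping member on day 5 (17.7% of all genes did not overlap in either direction) and, with Mmp14, 1 of 2 on day 7 (11.3%). The log2 fold changes were -0.18 ± 0.32 on day 5 and -0.23 ± 0.32 on day 7. The lowest Timp1 tumor was day 3 replicate 1, so that the day 3 value of -0.49 ± 0.32 became -0.18 without it.

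Timp2, which also takes part in activating pro-Mmp2, ranged from 296.5 CPM in day 5 replicate 3 to 581.2 in day 3 replicate 1, with a median of 350.5. The day 3 tumors held 581, 350.5 and 398 CPM and the day 7 tumors 304, 344 and 307, without overlap (18.4% of all genes were lower in this way). The log2 fold change from day 3 to day 7 was -0.48 ± 0.18 (edgeR adjusted p 0.0988). It was -0.23 without day 3 replicate 1. Timp3, an inhibitor bound to the matrix, had the narrowest range of all, 1.68-fold, from 133.0 to 224.1 CPM, and log2 fold changes against day 0 between -0.15 and 0.08. The pair of members most alike over the 15 tumors was Mmp9 and Timp2, with a rho of 0.904, and the least alike was Mmp2 and Mmp10, at -0.654.

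**Figure D4:**
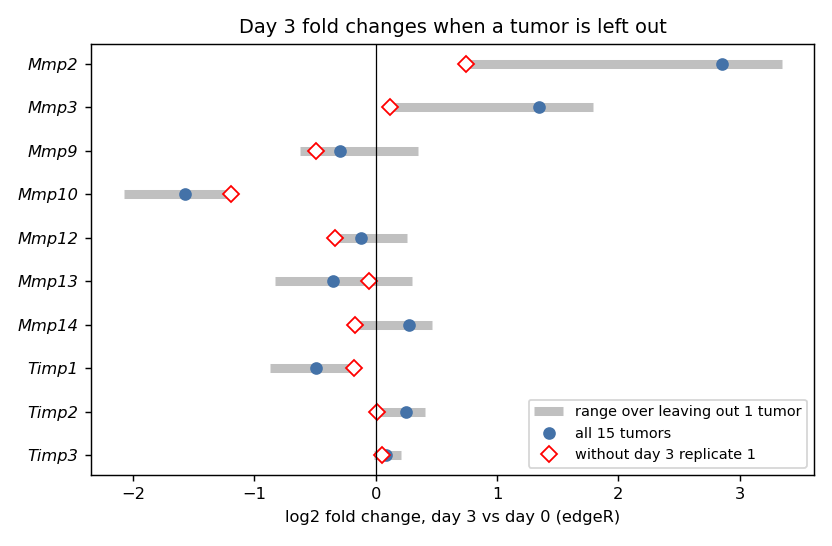
edgeR log2 fold changes on day 3 against day 0 for the 10 genes with all 15 tumors (filled circles), without day 3 replicate 1 (open diamonds) and over all fits that left out 1 tumor (grey bars). The Mmp2 value moves from 2.85 to 0.75, and Mmp10 stays below -1.19.

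Summed over members and per length, the 7 proteases came to 175 ± 25.9 CPM per kb on day 0 and the 3 inhibitors to 299 ± 26.6. The ratio of proteases to inhibitors lay between 0.477 and 0.625 in 13 of the 15 tumors. It was 0.964 in day 5 replicate 1 and 1.84 in day 3 replicate 1, the tumors with the highest Mmp2. Its mean was 0.583 ± 0.0385 for the day 0 tumors, 0.556 ± 0.0129 for day 1, 0.990 ± 0.733 for day 3, 0.669 ± 0.260 for day 5 and 0.549 ± 0.0694 for day 7 (SD over 3 tumors).

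Over all 10 members the median log2 fold change was -0.08 for day 1, -0.02 for day 3, -0.11 for day 5, -0.26 for day 7 and -0.45 for day 7 against day 3. Without day 3 replicate 1 it was -0.11 for day 3 and -0.15 for day 7 against day 3. The medians of all genes in these comparisons were between -0.02 and 0.02.

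Of 18 other MMPs and inhibitors listed beside the members, 11 passed the filter, and 4 had at most 3 counts in any tumor. On day 3 DESeq2 called 3 of the 11 higher and 1 lower, with a median log2 fold change of 1.27, which was 0.26 without day 3 replicate 1. Mmp28 had a log2 fold change of -0.95 ± 0.32 and Reck, a membrane-bound MMP inhibitor, 1.50 ± 0.54, with edgeR adjusted p of 0.116 and 0.120. Without day 3 replicate 1 these were -0.56 and 0.26. Among 14 ADAM and ADAMTS proteases DESeq2 called none, with edgeR log2 fold changes of 0.40 ± 0.16 for Adam17, a sheddase of TNF, and 2.55 ± 1.06 for Adamts2, which was 0.67 without that tumor.

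Of 6 plasminogen system genes tested, DESeq2 called 1 lower on day 3, Plat (tissue plasminogen activator), at -0.96 ± 0.21. It measured 75.1 ± 15.8 CPM on day 3 and 146 ± 7.60 on day 0, and the value was -0.89 without day 3 replicate 1. Serpine2, a protease inhibitor, was at 1.10 ± 0.56 and 0.11 without that tumor. Of 8 cathepsins and cystatins, the lysosomal proteases and their inhibitors, DESeq2 called 5 higher, with a median of 1.21 and 0.58 without day 3 replicate 1. Ctsb measured 3191 ± 1564 CPM on day 3 and 1192 ± 21.8 on day 0 (log2 fold change 1.42, 0.94 without that tumor) and Ctsd 1263 ± 611 and 479 ± 26.7 (1.40 and 0.93). The 8 macrophage markers summed to 2017 to 5288 CPM on day 3 and to 1373 to 1387 on day 0, and their part in the cathepsin values was not tested.

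Among 15 cytokines, AP-1 subunits and partners of MMPs, DESeq2 called 2 lower on day 3, both AP-1 subunits. Junb was at -0.55 ± 0.15 and Jun at -0.55 ± 0.17, or -0.38 and -0.35 without day 3 replicate 1. The AP-1 subunits Fos and Fosl1, also in this list, were not called. Fos was at 0.67 ± 0.51 and Fosl1 at -0.37 ± 0.44, or 0.61 and 0.092 without that tumor. Of 12 matrix substrates DESeq2 called 3 lower and none higher, though the list's median was 0.46 (-0.19 without that tumor). Fn1 (fibronectin) was at -0.90 ± 0.24 and Vcan (versican) at -0.83 ± 0.22, and without day 3 replicate 1 at -1.18 and -0.69. None of these genes passed the edgeR test, whose smallest adjusted p on day 3 was 0.115. Over all genes DESeq2 called 12.9% on day 3, and 0.553% without day 3 replicate 1. In the comparisons of days 1, 5 and 7 with day 0, DESeq2 called 0 genes of these 6 lists. For day 7 against day 3, where it called 21.0% of all genes (0.605% without that tumor), it called 5 of the 11 other MMPs and inhibitors lower, 2 ADAM proteases lower, 1 plasminogen gene each way, 6 cathepsins and cystatins lower, 2 inducers higher, and 1 substrate higher and 2 lower. With day 3 replicate 1 left out, DESeq2 called 3 genes of the 6 lists on day 3, all lower (Mmp28, Plat and Fn1), and 0 for day 7 against day 3, where it gave no adjusted p for any of the 11 other MMPs and inhibitors. The median log2 fold change for day 7 against day 3 then went from -1.01 to -0.49 for the other MMPs and inhibitors, from -1.09 to -0.66 for cathepsins and cystatins, and from -1.0002 to -0.15 for matrix substrates.

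By Spearman rho of log2 CPM over 15 tumors, the genes most like Mmp10 were Golph3 (0.907), Ercc1 (0.893) and Hnrnpk (0.886), and those most like Mmp3 were Tprgl (0.893), Ighg1 (0.873) and Ifitm2 (0.864). Mmp9 was most like Dysf and Plvap (both 0.932) and Clec7a (0.929). Mmp12 was most like Dpp7 (0.875), Aebp1 (0.825) and Lrp12 (0.821), and Mmp13 like Hgs (0.964), Dgcr2 (0.950) and Fnbp4 (0.929). Mmp14 was most like Tgfb1 (0.939), Ptms (0.929) and Crmp1 (0.896). For Timp1 these genes were Pdpn (0.843), 1810055G02Rik (0.832) and Azin1 (0.789), for Timp2 Il4ra (0.929), Dmxl2 (0.921) and Clec7a (0.918), and for Timp3 Stom (0.882), Serpinb8 (0.868) and 3110052M02RIK (0.864). All share the libraries and the mixture of cells in each tumor.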

How the data were processed

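The labels and the study's methods describe poly(A) RNA, single-end 100 base Illumina reads, and kallisto with GRCm38. Gene-level estimated counts, whole in every cell, were deposited in a table with a column per tumor. The transcript set and strandedness were not given in the sources used here, and reads shared by similar transcripts were divided by kallisto. Of 32544 entries, 1 was a date and was left out (at most 0.0268% of counts). The filter was CPM over 0.366 in 3 or more tumors (15494 genes). Total counts were 23713090 to 31913106, and a limit of 3 counts was at most 0.125 CPM, counting error only.

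The main test was the two-sided edgeR 4.0.16 quasi-likelihood test (R 4.3.3, TMM factors, day as the term, all 15 tumors), Benjamini-Hochberg adjusted over all genes, called at 0.05. It was also run on simulated counts with the same dispersion for all genes and no outlying tumor. That check does not cover data with a tumor such as day 3 replicate 1. DESeq2 1.42.0, limma 3.58.1 voom, other filters and factors, a replicate block, fits of the 2 days alone and leaving out each tumor were alternatives. CPM used TMM-scaled library totals, and gene lengths came from GENCODE M21 exons. In every comparison all 10 members are named, in each list the 2 genes with the smallest edgeR p on day 3, and for each member the 3 most similar genes. Fos and Fosl1 are named besides, as AP-1 subunits of the same list as Junb and Jun. Members and lists were chosen with earlier results of these data known.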

Additional observations from a re-analysis of the deposited data

How the results depend on the processing

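No edgeR call of a gene appeared under RLE factors, without the filter, with a CPM minimum of 1 or with the replicate block. DESeq2 called 40, 2003, 11 and 5 genes on days 1, 3, 5 and 7 against day 0, 3260 for day 7 against day 3 and 1176 in the joint test. limma voom with quality weights called 1186 on day 3, 2458 on day 5, 3246 for day 7 against day 3 and 3864 in the joint test, and fits of the 2 days alone called 1 on day 5 and 1 on day 7. Leaving out 1 tumor gave 0 to 61 edgeR calls on day 3 (61 without day 1 replicate 3, 2 without day 3 replicate 3), 0 to 2104 for day 7 against day 3 (2104 without day 3 replicate 3, 58 without day 1 replicate 3, 1 without day 7 replicate 2) and 0 in the others, and by DESeq2 1 to 113, 13 to 4225, 0 to 31 and 1 to 16 on days 1, 3, 5 and 7, 12 to 5259 for day 7 against day 3 and 180 to 2362 in the joint test. The counts without day 3 replicate 1 were 85 on day 3 and 93 for day 7 against day 3 by DESeq2. The cause of these differences was not tested.

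Correlations of same-numbered tumors ran from -0.619 to 0.511. Differently numbered tumors were not compared, so whether replicate numbers pair the samples was not tested. The replicate block moved Mmp13 on day 1 to -0.0077 and Mmp14 on day 5 to -0.0179 (log2), and called 0 genes.

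limma voom with quality weights called Mmp10 on day 3 (log2 fold change -1.32) and for day 7 against day 3 (1.56), and reversed these log2 fold changes: Mmp2 to -1.13 on day 1 and -0.17 on day 5, Mmp3 to -0.044 on day 3 and 0.36 for day 7 against day 3, Mmp9 to -0.46 on day 5, Mmp12 to 0.0332 for day 7 against day 3, Mmp13 to 0.20 on day 3, and Mmp14 to -0.17 on day 3 and -0.0003 on day 5. Correlations by Pearson's r instead of rho were 0.753 for Dysf and 0.778 for Plvap with Mmp9, 0.694 for Dpp7 with Mmp12, 0.813 for Tgfb1 with Mmp14 and 0.760 for Clec7a with Timp2.

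Leaving out 1 tumor reversed further log2 fold changes, none past the threshold, which ranged as follows. For day 1 against day 0 these were Mmp2 from -0.77 to 0.65, Mmp12 from -0.41 to 0.32, Mmp13 from -0.33 to 0.74, Timp1 from -0.49 to 0.0832, Timp2 from -0.19 to 0.0141 and Timp3 from -0.12 to 0.23. For day 5 against day 0 these were Mmp2 from -0.65 to 1.36, Mmp9 from -1.37 to 0.84, Mmp10 from -0.25 to 0.0040, Mmp12 from -0.54 to 0.10, Mmp14 from -0.21 to 0.23, Timp2 from -0.17 to 0.0102 and Timp3 from -0.21 to 0.0001. For day 7 against day 3 these were Mmp3 from -1.22 to 0.46, Mmp12 from -0.35 to 0.0151, Mmp13 from -0.72 to 0.0591 and Timp1 from -0.0402 to 0.65. For day 3 against day 0 these were Mmp9 from -0.62 to 0.35, Mmp12 from -0.37 to 0.26, Mmp13 from -0.83 to 0.30, Mmp14 from -0.17 to 0.47 and Timp3 from -0.0106 to 0.21. For day 7 against day 0 these were Mmp10 from -0.0994 to 0.39 and Mmp12 from -0.57 to 0.0517. Beside Mmp10 and Mmp2, DESeq2 called other members in some of the 15 fits that left out 1 tumor: Mmp3 and Timp1 in 1 each on day 3, and Mmp14 in 2 and Timp2 in 4 for day 7 against day 3. Over all genes such fits called 13 to 4225 on day 3 and 12 to 5259 for day 7 against day 3. These calls are therefore not read as results about the members. The lowest Mmp10 value, that of day 3 replicate 1, rests on 26 counts.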
